A study of Mus musculus with 6 samples.

Results

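The 10 genes described here belong to the BCL2 family of apoptosis regulators: Bax, Bak1, Bbc3, Pmaip1, Bcl2, Bcl2l1, Bcl2l11, Mcl1, Bid and Bad. They were chosen by name, with earlier results of these data known, and kept when their deposited value differed from 0. This held for all 10 in all 6 libraries, out of 26562 symbols with such a value and 47593 symbols in all. Their expression was compared between 2 groups of 3 samples of primary hippocampal neurons from wild-type (WT) mice. One group was exposed to astrocytic apolipoprotein E (apoE) particles (A-apoE) and the other to microglial apoE particles (M-apoE), both at 6 µg/mL from culture day 10 for 24 h. The shared medium was Neurobasal with B27 and GlutaMAX. Untreated cultures were not analysed here, and directions are given for microglial relative to astrocytic apoE. The labels do not say whether the samples of a group were separate cultures, and p-values therefore measure only the spread between these samples, which may be technical.

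BCL2 family proteins decide whether the outer mitochondrial membrane stays intact. Guardians (BCL2, BCL-XL, MCL1) hold the pore-forming effectors BAX and BAK in check, and BH3-only proteins (BID, BIM, PUMA, NOXA, BAD) bind guardians or activate effectors when a cell is stressed. An open membrane releases cytochrome c, which assembles the caspase-activating apoptosome. In neurons, trophic factor loss and DNA damage are known to act through BH3-only genes such as Bbc3 and Bcl2l11, and much control of the family lies in protein binding, phosphorylation and turnover, which RNA does not show.

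Members of both camps rose with microglial apoE. The guardians Bcl2 and Bcl2l1, the effector Bax and the BH3-only genes Bid, Bbc3 and Pmaip1 were higher, and the BH3-only gene Bcl2l11 was lower. Mcl1, Bak1 and Bad did not pass the test. The changes were small, between 1.08-fold and 1.19-fold among those that rose. In limma (adjusted p under 0.05 over 15055 genes tested), 7 of the 10 members were called, against 24.9% of all genes tested. Of these, 6 were higher, against a background of 13.0%, and 1 was lower, against 11.8%. The 3 + 3 libraries did not overlap for 8 of the 10 members, against 38.9% of all genes tested. The median log2 fold change was 0.14 over the members and -0.00057 over all genes tested. Because the members were chosen with earlier results of these data known, these shares describe them and are no test of the family.

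**Figure D1:**
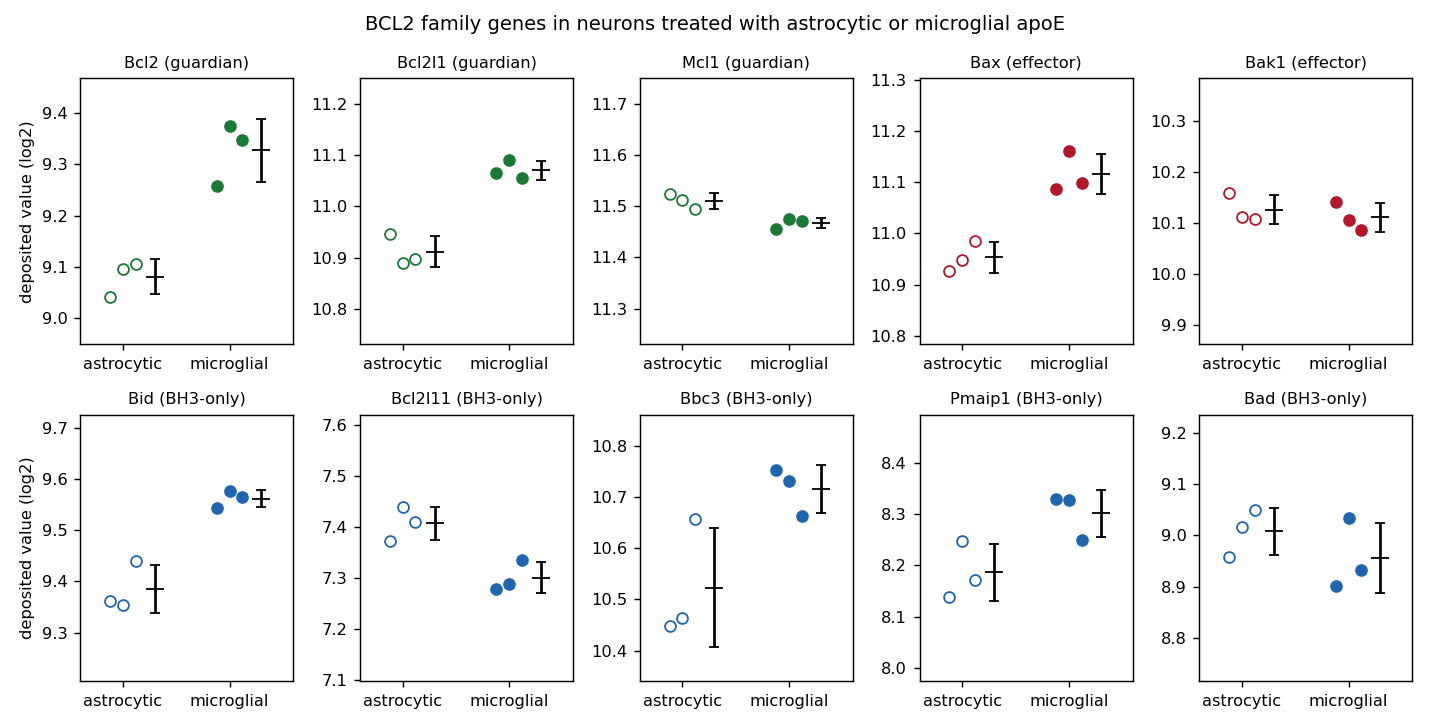
Deposited log2 value of each of the 10 members in each library (y axis, the same span in every panel), for astrocytic (open) and microglial (filled) apoE, with mean and SD (n = 3) beside the points. Every filled point lies above every open point for Bcl2, Bcl2l1, Bax, Bid, Bbc3 and Pmaip1, and below for Bcl2l11 and Mcl1, while the groups overlap for Bak1 and Bad.

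Promoters of 3 members are shown because these genes differed in direction while sharing, in part, the letters searched for: Bax and Bbc3 rose and Bcl2l11 fell. Each sequence runs 5′ to 3′ on the strand of the gene, from 250 bases before to 50 after an annotated start (RefSeq, GRCm38.p6). Capitals mark an exact match to the p53 half-site in Bax and to the FOXO motif GTAAACA, on either strand, in Bbc3 and Bcl2l11.
Bax, chr7:45466849-45467148, minus strand: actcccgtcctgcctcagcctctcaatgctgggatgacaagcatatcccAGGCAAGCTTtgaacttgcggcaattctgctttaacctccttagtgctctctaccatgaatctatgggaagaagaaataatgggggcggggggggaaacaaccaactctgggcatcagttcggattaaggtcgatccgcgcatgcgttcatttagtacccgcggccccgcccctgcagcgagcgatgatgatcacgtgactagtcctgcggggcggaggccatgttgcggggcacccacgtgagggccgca
Bbc3, chr7:16310011-16310310, plus strand, 1 of 3 annotated starts: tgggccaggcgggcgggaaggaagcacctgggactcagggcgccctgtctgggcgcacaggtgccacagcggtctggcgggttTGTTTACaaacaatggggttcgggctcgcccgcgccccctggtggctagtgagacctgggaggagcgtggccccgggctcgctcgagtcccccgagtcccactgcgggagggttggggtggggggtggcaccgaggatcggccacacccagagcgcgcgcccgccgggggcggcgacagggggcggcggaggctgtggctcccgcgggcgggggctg
Bcl2l11, chr2:128125788-128126087, plus strand, 1 of 2 annotated starts: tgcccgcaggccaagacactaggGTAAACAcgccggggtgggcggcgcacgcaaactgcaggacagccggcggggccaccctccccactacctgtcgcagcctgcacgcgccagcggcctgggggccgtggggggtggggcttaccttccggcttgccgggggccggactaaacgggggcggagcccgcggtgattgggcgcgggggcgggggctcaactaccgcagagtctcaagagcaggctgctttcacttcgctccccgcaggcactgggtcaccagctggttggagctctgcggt

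RefSeq promoters were matched for 9 of the 10 members, 15 windows of 300 bases in all, with no entry for Pmaip1. The p53 half-site, searched by its consensus, was found in 1 of the 15 windows, that of Bax, against 8.36% of all 32851 windows. Its first base lies at -201 from the start, and the consensus, which is symmetric, was met on both strands there. The FOXO motif GTAAACA was in 2 of 15, at -167 in Bbc3 on the opposite strand and at -227 in Bcl2l11 on the same strand, against 3.65% of all windows. None of the 15 held the cyclic AMP response element TGACGTCA (1.79% of all windows), the interferon regulatory factor core GAAANNGAA (8.56%) or the ATF4 composite element TGATGCAA (0.895%), none of which overlaps another motif searched. A match is a description of letters, and a window without one says nothing of sites elsewhere.

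Among the guardians, Bcl2, the founding member, which sits on mitochondrial and endoplasmic reticulum membranes, had the largest fold change of the 10. Its values were 9.04, 9.10 and 9.11 with astrocytic and 9.26, 9.38 and 9.35 with microglial apoE (log2, replicates 1, 2 and 3). All 3 microglial libraries lay above the 3 astrocytic ones, and microglial replicate 1 was the lowest of its group. Bcl2 rose 1.19-fold, or by 18.7% (log2 fold change 0.25 ± 0.033 SE, 95% interval 0.18 to 0.32, limma adjusted p = 3.3e-06), and 2.82% of genes tested had a larger absolute change. Bcl2 lies on GRCm38 chromosome 1, 106538178 to 106714274, minus strand. An antisense gene, D630008O14Rik, covers 6.09% of its exon length and stood near the lowest value in the files, at -1.96 with astrocytic and -1.97 with microglial apoE.

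Bcl2l1, which encodes BCL-XL, a main survival protein of neurons, had values of 10.95, 10.89 and 10.90 with astrocytic and 11.06, 11.09 and 11.06 with microglial apoE. The groups did not overlap. It rose 1.12-fold (0.16 ± 0.028 SE, 95% interval 0.10 to 0.22, adjusted p = 1.0e-04 in limma). The gene also yields a short isoform, BCL-XS, which opposes BCL-XL, and a single value per gene does not separate the isoforms. It spans chromosome 2, 152780668 to 152831728, minus strand, with no overlapping gene in the annotation.

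Mcl1, a short-lived guardian that binds NOXA and BIM, did not pass. It stood at 11.52, 11.51 and 11.49 with astrocytic and at 11.46, 11.47 and 11.47 with microglial apoE. The microglial values were all lower, and the difference was smaller than that of any member called (-0.04 ± 0.026 SE, 95% interval -0.10 to 0.01, limma adjusted p = 0.25). The interval lies below the log2 fold changes of Bcl2 and Bcl2l1, but intervals on this scale may be too narrow. Mcl1 lies on chromosome 3, 95658788 to 95663176, plus strand.

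The 2 pore-forming effectors differed in their calls. Bax, which moves from the cytosol to mitochondria, had values of 10.93, 10.95 and 10.98 with astrocytic and 11.09, 11.16 and 11.10 with microglial apoE. No library overlapped between the groups, and microglial replicate 2 was the highest of the 6. Bax rose 1.12-fold (0.16 ± 0.029 SE, 95% interval 0.10 to 0.22, limma adjusted p = 1.2e-04). It lies on chromosome 7, 45461697 to 45466898, minus strand, and shares 12.2% of its exon length with a gene on the same strand, Gm45808. That symbol is absent from the deposited data.

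Bak1, the effector that resides in the mitochondrial membrane, had values of 10.16, 10.11 and 10.11 with astrocytic and 10.14, 10.11 and 10.09 with microglial apoE. The groups overlapped (-0.01 ± 0.029 SE, 95% interval -0.07 to 0.05, limma adjusted p = 0.76). Bak1 (chromosome 17, 27019810 to 27029009, minus strand) shares 25.5% of its exon length with Ggnbp1 on the opposite strand, which stood far lower, at 4.44 with astrocytic apoE. Whether the Bax and Bak1 changes differ was not tested, but their 95% intervals do not overlap.

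Among the BH3-only genes, Bid, whose protein links death receptors to mitochondria after cleavage by caspase-8, rose 1.13-fold. Its values were 9.36, 9.35 and 9.44 with astrocytic and 9.54, 9.58 and 9.56 with microglial apoE (0.18 ± 0.031 SE, 95% interval 0.11 to 0.24, limma adjusted p = 1.1e-04). The highest astrocytic library, replicate 3, lay below the lowest microglial one. Bid (chromosome 6, 120891930 to 120916853, minus strand) shares 17.7% of its exon length with the neighbouring family gene Bcl2l13 on the opposite strand. Bcl2l13 did not pass (-0.05 ± 0.031 SE), and reads of the pair cannot be told apart where the counting ignores strand, which the sources used here do not state.

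Bbc3 encodes PUMA, a BH3-only protein that p53 and CHOP are known to induce. Its values were 10.45, 10.46 and 10.66 with astrocytic and 10.75, 10.73 and 10.66 with microglial apoE. The groups just failed to touch: astrocytic replicate 3 reached 10.656 and microglial replicate 3 stood at 10.663. Bbc3 rose 1.14-fold (0.19 ± 0.052 SE, 95% interval 0.08 to 0.31, limma adjusted p = 0.022), with the largest SE of the 10 members. Without astrocytic replicate 3 the log2 fold change was 0.26, and the call was lost without astrocytic replicate 2 (adjusted p = 0.054), microglial replicate 1 (adjusted p = 0.071) or microglial replicate 2 (adjusted p = 0.17). Bbc3 lies on chromosome 7, 16308393 to 16318205, plus strand, with no overlapping gene.

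Pmaip1, the gene of NOXA, which neutralizes MCL1, had values of 8.14, 8.25 and 8.17 with astrocytic and 8.33, 8.33 and 8.25 with microglial apoE. The margin was again narrow, 8.2488 in astrocytic replicate 2 against 8.2494 in microglial replicate 3. Pmaip1 rose 1.08-fold (0.12 ± 0.034 SE, 95% interval 0.05 to 0.19, limma adjusted p = 0.013). The call was lost without astrocytic replicate 1 (adjusted p = 0.095), microglial replicate 1 (adjusted p = 0.071) or microglial replicate 2 (adjusted p = 0.054).

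Bcl2l11, which encodes BIM, an activator of BAX and BAK that FOXO and JUN factors are known to induce in neurons deprived of trophic support, was the single member that fell. It stood at 7.37, 7.44 and 7.41 with astrocytic and at 7.28, 7.29 and 7.34 with microglial apoE. All microglial values were below the astrocytic ones. Bcl2l11 fell by 7.09% (log2 fold change -0.11 ± 0.029 SE, 95% interval -0.17 to -0.05, limma adjusted p = 0.0091). The call was lost without astrocytic replicate 2 (adjusted p = 0.068) or microglial replicate 1 (adjusted p = 0.052). It lies on chromosome 2, 128126038 to 128162547, plus strand.

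Bad, whose protein binds BCL2 and BCL-XL unless survival kinases phosphorylate it, did not pass. Its values were 8.96, 9.02 and 9.05 with astrocytic and 8.90, 9.03 and 8.93 with microglial apoE. Microglial replicate 2 lay within the astrocytic range (-0.05 ± 0.035 SE, 95% interval -0.12 to 0.02, limma adjusted p = 0.30). Bad (chromosome 19, 6941861 to 6951899, plus strand) shares 20.5% of its exon length with Gpr137 on the opposite strand, which stood higher, at 9.93 with astrocytic apoE.

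**Figure D2:**
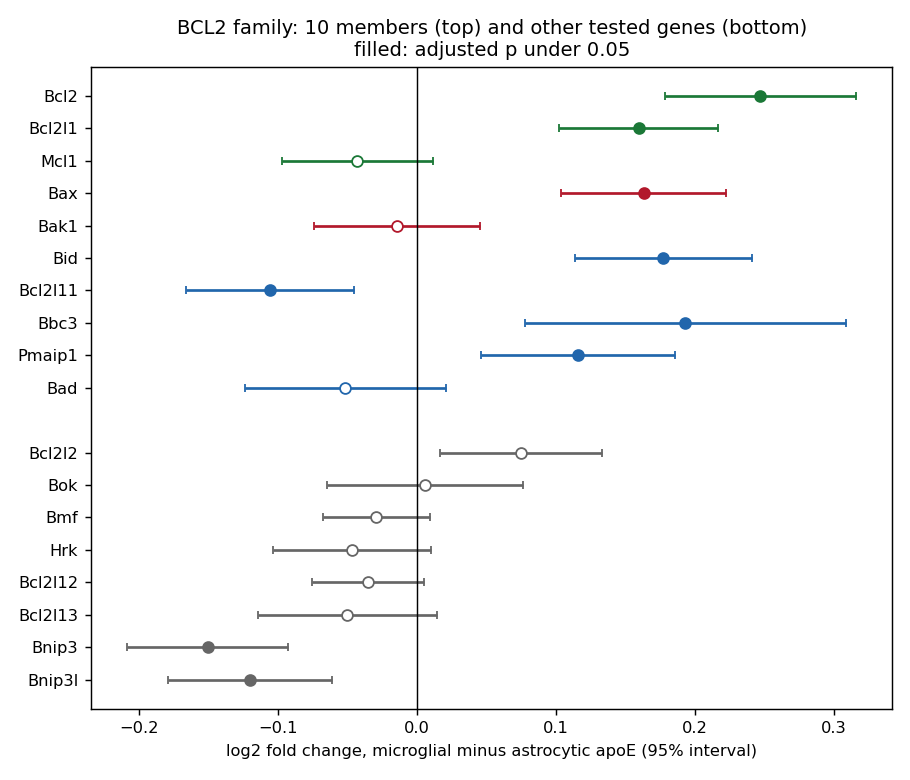
Log2 fold change, microglial minus astrocytic apoE (x axis), with its 95% interval from limma, for the 10 members and the 8 other tested genes of the family; filled points had an adjusted p under 0.05. Bcl2 is farthest to the right at 0.25, Bcl2l11 is the lowest of the 10 at -0.11, and the other family genes reach from -0.15 (Bnip3) to 0.07 (Bcl2l2).

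Levels between genes were compared per kb of annotated exon, as the deposited value minus the log2 of the exon length. Bax was the most abundant member on this scale with astrocytic apoE (10.30), followed by Mcl1 (9.74), Bbc3 (9.44), Bak1 (8.86), Bcl2l1 (8.71), Bad (7.65), Bid (7.56), Pmaip1 (6.74), Bcl2 (5.89) and Bcl2l11 (4.40). Each neighbour in this order was separated by more than the sum of the 2 SDs. These SDs measure the spread of a gene between libraries and not the error of comparing different genes. The closest pair was Bad and Bid, 0.095 apart with SDs of 0.046 and 0.047, and with microglial apoE their order was reversed (7.60 for Bad and 7.73 for Bid). Bak1 and Bcl2l1 also changed order, at 8.84 and 8.87 with microglial apoE. The exon length is the union over all isoforms, which lowers the value of genes with long 3′ ends such as Bcl2 (9.157 kb) and Bcl2l11 (8.029 kb).

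**Figure D3:**
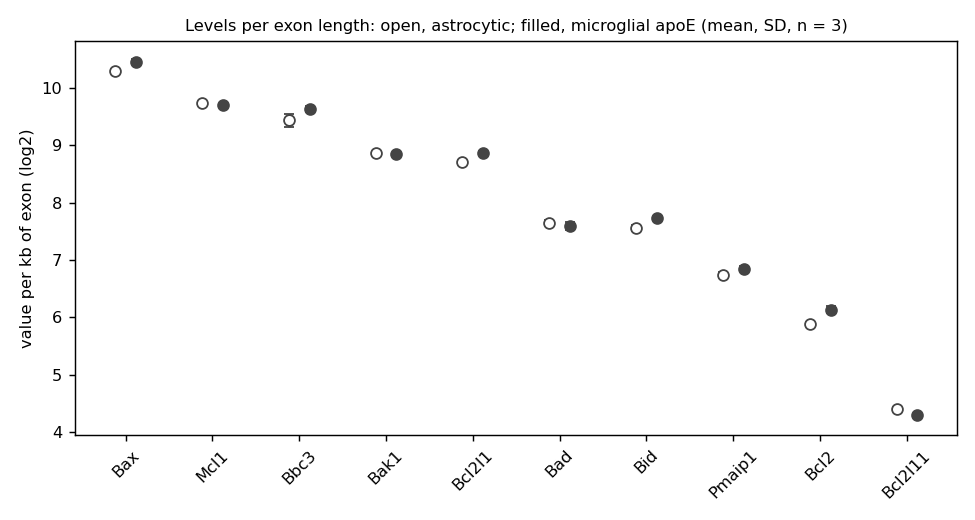
Value per kb of exon (y axis, log2) of the 10 members, ordered by level with astrocytic apoE (open) and shown beside microglial apoE (filled), as mean and SD (n = 3; most SD bars are smaller than the points). Levels reach from 10.30 for Bax to 4.40 for Bcl2l11, a span far wider than any difference between the groups.

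Differences between members within a library do not depend on the scaling between libraries. They were computed after the members' values were seen and are given without a test. The deposited value of Bax exceeded that of Bcl2 by 1.88, 1.85 and 1.88 with astrocytic and by 1.83, 1.79 and 1.75 with microglial apoE, so that the difference was smaller by 0.084 on average with microglial apoE and the groups did not overlap. The difference between Bax and Bcl2l1 was 0.042 ± 0.055 (SD, n = 3) in the astrocytic group and 0.046 ± 0.023 in the microglial group, with overlapping groups. Bcl2l11 lay below Bcl2, at -1.67 ± 0.02 with astrocytic and -2.03 ± 0.05 with microglial apoE, and these groups did not overlap. Bbc3 minus Bcl2 was 1.44 ± 0.096 and 1.39 ± 0.094, and the groups overlapped. Bcl2l1 minus Bcl2 was 1.83 ± 0.064 with astrocytic and 1.74 ± 0.055 with microglial apoE, also with overlapping groups.

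Genes with the profile most like that of Bcl2, by the Euclidean distance between mean-centred values over the 6 libraries, were Aldoa (0.046), Cyb5r1 (0.051) and Pttg1 (0.052). Their log2 fold changes were 0.25 for Aldoa, 0.28 for Cyb5r1 and 0.27 for Pttg1. Each was lowest among the microglial libraries in replicate 1, as Bcl2 was. Such likeness follows from how the genes were picked.

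The rest of the family was read from a list of 15 further genes, of which 8 were tested. Of the others, Bcl2l10 was listed at 0, and Bcl2a1a, Bcl2a1b, Bcl2a1d, Bik, Bcl2l14 and Bcl2l15 stayed under the filter on low values. Of the 8, 0 rose and 2 fell in limma, against 13.0% and 11.8% of all genes tested. At an unadjusted p under 0.05, 1 was higher and 2 were lower, and the median log2 fold change was -0.04. Those that fell were Bnip3 (10.24, 10.21 and 10.20 with astrocytic against 10.08, 10.07 and 10.05 with microglial apoE; -0.15 ± 0.028 SE, limma adjusted p = 2.2e-04) and Bnip3l (-0.12 ± 0.029 SE, limma adjusted p = 0.0029), both known chiefly as receptors for the removal of mitochondria by autophagy. Bcl2l2, the guardian BCL-W, had 0.07 ± 0.028 SE (limma adjusted p = 0.056) with groups that did not overlap. It passed with the filter at 50 (adjusted p = 0.048), with equal sums of 2 to the power of the value (adjusted p = 0.026), without limma's trend and robust options (adjusted p = 0.030) and without astrocytic replicate 3 (adjusted p = 0.044). Hrk, a BH3-only gene of neurons, stood at 11.53 ± 0.004 (SD, n = 3) in the astrocytic group and at 11.49 ± 0.04 in the microglial group and did not pass (-0.05 ± 0.028 SE), nor did the BAX-like gene Bok (0.01 ± 0.034 SE), the BH3-only gene Bmf (-0.03 ± 0.019 SE), Bcl2l12 (-0.04 ± 0.020 SE) or Bcl2l13. Bnip3 shares 22.3% of its exon length with the antisense gene Gm45507 and Bcl2l12 28.9% with Gm15545, so both are uncertain where counting ignored strand. The symbol Gm45507 is absent from the deposited data.

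The caspase machinery list held 18 genes (cytochrome c, apoptosome, caspases, their inhibitors and antagonists), most of which act after the membrane opens. All were tested, and 0 rose and 2 fell in limma, against 13.0% and 11.8% of all genes tested. At an unadjusted p under 0.05, 2 were higher and 4 were lower, and the median log2 fold change was 0.02. Cycs, which encodes cytochrome c, had values of 11.30, 11.22 and 11.15 with astrocytic and 11.11, 11.11 and 11.08 with microglial apoE (-0.13 ± 0.031 SE, limma adjusted p = 0.0042). Casp6, a caspase tied to axon degeneration, fell by 0.11 on the log2 scale (SE 0.031, limma adjusted p = 0.011). The apoptosome scaffold Apaf1 (0.08 ± 0.030 SE, limma adjusted p = 0.063) did not pass. With equal sums of 2 to the power of the value 2 rose and 2 fell, and with median centring 0 rose and 4 fell. The Cycs call was lost without astrocytic replicate 1 (adjusted p = 0.059), and the Casp6 call without astrocytic replicate 3 (adjusted p = 0.070) or microglial replicate 3 (adjusted p = 0.074).

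Of 21 tested genes of 22 listed as upstream control, 6 rose and 5 fell, against 13.0% and 11.8% of all genes tested. The list's median log2 fold change was 0.02. Those that rose were Trp53, the p53 gene itself (10.38, 10.40 and 10.40 against 10.72, 10.76 and 10.71; 0.33 ± 0.028 SE), its ubiquitin ligase and target Mdm2 (0.26 ± 0.029 SE), the stress factors Atf3 (0.36 ± 0.034 SE) and Atf4 (0.24 ± 0.026 SE), the CHOP gene Ddit3 (0.19 ± 0.030 SE) and the forkhead factor Foxo3 (0.18 ± 0.031 SE). The limma adjusted p-values of these 6 were 8.6e-05 or lower. The p53 target Cdkn1a, outside that list, rose by 0.38 ± 0.028 SE (limma adjusted p = 6.9e-11). Ddit3 shares 3.97% of its exon length with Mars on the opposite strand, and Mars itself rose (0.21 ± 0.029 SE). Among those that fell, singled out once their values were known, were Jun (-0.14 ± 0.030 SE), Mybl2 (-0.11 ± 0.022 SE), the JNK gene Mapk8 (-0.10 ± 0.029 SE) and E2f1 (-0.09 ± 0.029 SE). The call of Mapk8 was lost without astrocytic replicate 1 or 2 (adjusted p = 0.061 and 0.071), and that of E2f1 with equal sums (adjusted p = 0.065) and without astrocytic replicate 1 or any 1 microglial library (adjusted p = 0.055 to 0.19).

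Of 15 genes for turnover or partners of the family's proteins, 3 rose and 2 fell, against 13.0% and 11.8% of all genes tested. The list's median log2 fold change was 0.04. March5, a mitochondrial ubiquitin ligase that acts on MCL1 and NOXA, had values of 11.50, 11.53 and 11.55 with astrocytic and 11.73, 11.76 and 11.70 with microglial apoE (0.20 ± 0.027 SE, limma adjusted p = 4.8e-06). Vdac2, a channel that binds BAK (0.15 ± 0.028 SE), and Tmbim6, the BAX inhibitor 1 gene (0.14 ± 0.028 SE), also rose. Itpr1, an endoplasmic reticulum calcium channel that BCL2 binds, fell by 0.13 on the log2 scale (SE 0.035), a call lost without microglial replicate 2 (adjusted p = 0.054). The second gene that fell, singled out once its value was known, was the chaperone partner Bag3 (-0.08 ± 0.030 SE, limma adjusted p = 0.044). Its call was lost with no filter (adjusted p = 0.062), with equal sums (adjusted p = 0.0995), with the replicate block (adjusted p = 0.055) and without any 1 library other than astrocytic replicate 2 (adjusted p = 0.064 to 0.14).

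**Figure D4:**
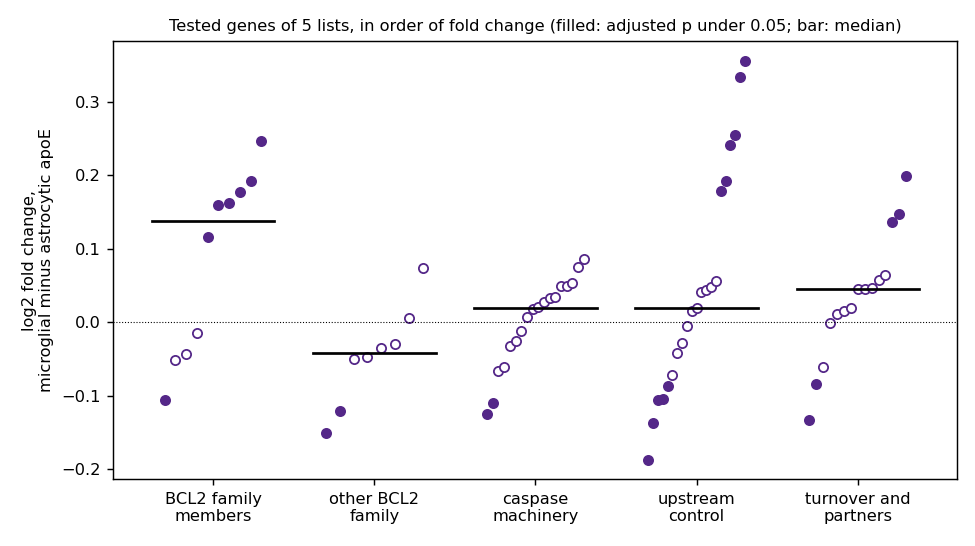
Log2 fold change, microglial minus astrocytic apoE (y axis), of every tested gene in 5 lists, ordered within each list; filled points had an adjusted p under 0.05 and bars are medians. The median is 0.14 for the 10 members, -0.04 for the other family genes, 0.02 for the caspase machinery, 0.02 for upstream control and 0.04 for turnover and partners.

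Transcripts of other cell types were detected beside those of neurons. All 10 neuronal markers were detected, with Map2 at 14.63 and Tubb3 at 12.92 with astrocytic apoE (log2). Of these 4 fell, Map2 among them (-0.10 ± 0.027 SE), and 1 rose, Gad1 (0.25 ± 0.025 SE). Over all genes tested 13.0% rose and 11.8% fell. The neuronal markers had a summed 2 to the power of the value of 76578 to 77609 with astrocytic and 74479 to 75695 with microglial apoE. Of 10 astrocyte markers 7 fell, led by Gfap (-1.08 ± 0.026 SE), and 1 rose, Slc1a3 (0.09 ± 0.024 SE). The sum of the 10 was 58912 to 59674 with astrocytic and 50903 to 51764 with microglial apoE. All 10 markers of dividing cells fell, from 2451 to 2527 down to 1576 to 1602. The 12 markers of microglia and macrophages summed to 636 to 652 with astrocytic and 664 to 668 with microglial apoE. Of 9 tested 0 passed in limma (3 higher and 0 lower at an unadjusted p under 0.05), and Tmem119 and Trem2 stood at 1.11 and 1.20 with astrocytic apoE. Of 9 tested oligodendrocyte lineage markers 3 fell, led by Pdgfra (-0.38 ± 0.030 SE), and 1 rose, Olig2 (0.15 ± 0.029 SE). The sums of that list were 6504 to 6808 and 6610 to 6774. Of 6 tested vascular and fibroblast markers 2 rose, Col1a1 (0.21 ± 0.029 SE) and Col1a2 (0.08 ± 0.024 SE), and 0 fell, also at an unadjusted p under 0.05, with sums of 942 to 959 and 963 to 980. No marker of these lists was at 0, but P2ry12, Tmem119, Trem2, Mag, Pecam1, Cldn5, Flt1 and Lum stayed under the filter on low values. The part of these marker changes in the members' values was not tested, and in such bulk samples fewer cells of a type and less RNA per cell cannot be told apart.

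Across 14 alternative settings, 132 of 140 values of the members kept their side of the threshold. The 8 that did not were the lost calls of Bbc3, Pmaip1 and Bcl2l11 given above, each with 1 library left out. The sign changed in 1 of the 140 values, that of Bak1, which was not called, without astrocytic replicate 1. Bcl2 (0.22 to 0.28), Bcl2l1 (0.14 to 0.18), Bax (0.14 to 0.18) and Bid (0.16 to 0.20) were called under all 14, and Mcl1 (-0.06 to -0.03), Bak1 (-0.03 to 0.0019) and Bad (-0.09 to -0.02) under none.

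**Figure D5:**
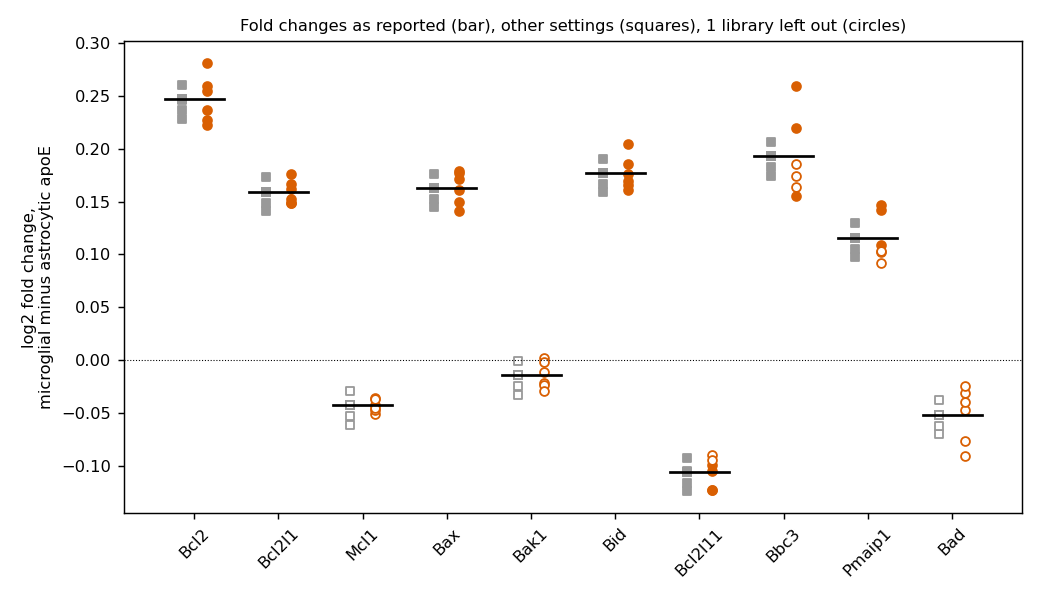
Log2 fold change of each member (y axis) as reported (bar), under the 8 other settings of the processing (squares) and with 1 library left out (circles); filled symbols had an adjusted p under 0.05. The open circles of Bbc3, Pmaip1 and Bcl2l11 are the 8 calls lost, and no called member crosses 0.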

How the data were processed

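RNA of 6 samples of cultured neurons was sequenced on a DNBSEQ platform, per the labels' protocols. The authors deposited a log2 value per symbol and sample. Per the submitters' processing notes, FastQC, HISAT2, featureCounts and DESeq2 are named, with the build GRCm38; their roles, versions and strand setting are not stated there. The values have the form of a regularized logarithm (inferred), which shrinks fold changes and SDs, most for weak genes, so intervals and p-values may be too narrow. At values of 6 to 8 the median SD was 0.034, where counting alone would give 0.12 if 2 to the power of the value were a count. At 8 to 10, where Bcl2, Bid, Pmaip1 and Bad lie, it was 0.036 against 0.062. At 10 to 12 it was 0.033 against 0.035. Sequencing depth is unknown. Sums of 2 to the power of the value were 18060473 to 18337624.

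Genes with 3 or more libraries at or above the log2 of 10 were tested (15055 genes). The deposited values were fitted with limma 3.58.1 (trend and robust options; R 4.3.3) on all 6 samples, with Benjamini-Hochberg adjustment over all genes tested. The procedure was tested on simulated data. Coordinates and exon lengths are from GENCODE M21 (GRCm38). Figures were drawn with matplotlib 3.10.9. Members and lists were chosen with earlier results of these data known. Genes named are all members, all tested genes of the wider family, Trp53, Cdkn1a, Ddit3 and Foxo3, up to 4 genes per list with the smallest p, and the 3 genes most like the member with the largest change. Results of individual genes among these are in part not reported here. Jun, Mybl2, Mapk8, E2f1, Bag3 and the cell type markers named fall outside this rule and were chosen after their values were seen.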

Additional observations from a re-analysis of the deposited data

How the results depend on the processing

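Alternatives were no filter, a filter at 50, median centring, equal sums of 2 to the power of the value (also without mitochondrially encoded genes, chosen after seeing the data), a pseudocount of 1, limma without its trend and robust options, each library left out, and a replicate block. Scaling moved the split over all genes tested from 1962 higher and 1780 lower to 1478 and 2765 with median centring, 2516 and 1318 with equal sums, and 1668 and 2330 without mitochondrial genes. All 3 kept 6 members higher and 1 lower. Leaving out a library left 4 to 6 members higher and 0 to 1 lower (0 without astrocytic replicate 2 or microglial replicate 1). It left 1 to 4 genes called of the caspase machinery list (1 without astrocytic replicate 1 or microglial replicate 3, 4 without astrocytic replicate 3 or microglial replicate 2), and 3 to 6 of the turnover list (3 without microglial replicate 2). The former list had 4 called with median centring and 4 with equal sums. The cause was not tested. The members' median was 0.12 to 0.15 under all alternatives. With the replicate block 3387 genes were called and 6 members rose and 1 fell, and the turnover list had 4 genes called in place of 5, losing Bag3. Deviations of same-numbered libraries did not go together (correlations across 9312 genes of 0.049, -0.14 and -0.21), so the numbers were not taken as pairs. Between differently numbered libraries the correlations were -0.14 to 0.19, the highest for astrocytic replicate 3 with microglial replicate 2. Whether the groups share batches under another matching was not tested. Depth is unknown, so the counting error of Bcl2l11 and Pmaip1, the lowest members, cannot be given.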
